A study of Rattus norvegicus with 8 samples.

Results

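Rat INS-1 insulinoma cells held in 20 mM glucose were set against INS-1 cells held in 2.8 mM glucose, both given only DMSO, the vehicle of forskolin. The comparison covered the genes that the authors listed as raised by forskolin at 2.8 mM glucose and that averaged 1 FPKM or more over the 4 libraries of the glucose experiment. FPKM counts sequenced fragments relative to transcript length and to the mapped fragments of the library. This choice left 1049 of the 1344 genes in the glucose table. INS-1 is an insulin-secreting line from a rat beta cell tumour, so it is a proliferating cell culture and not an islet. The study asked how glucose exposure and the activity of CREB bear on gene regulation by cAMP in such cells. Cells were kept for 3 days in 20 mM or 2.8 mM glucose and then received DMSO for 2 h, and parallel cultures received 10 uM forskolin for 2 h in place of DMSO. Each condition was 1 library, all in medium with serum and sodium pyruvate, and the 4 libraries of the series from cells with or without an adenovirus for A-CREB carry other treatments. Since each side was 1 library, no difference between 20 mM and 2.8 mM glucose has a replicate check, and no p-value is given.

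In a beta cell, glucose is taken up and broken down, the rise in ATP closes potassium channels, calcium enters and insulin is released. Glucose also changes transcription, through carbohydrate-sensing factors that bind E-boxes, through calcium and through the load of new proteins on the endoplasmic reticulum. Forskolin activates adenylyl cyclase, and the cAMP it makes leads to phosphorylation of CREB, which binds cAMP response elements and switches on early response genes. The genes described here are thus genes able to respond to cAMP, read in the absence of added forskolin.

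A table made only of forskolin-responsive genes is not a sample of the transcriptome. Every gene in it had more than 2-fold higher FPKM with forskolin than with DMSO at 2.8 mM, the lowest ratio being 2.00, so a low value in the 2.8 mM DMSO library helped a gene to be listed. That library was the lowest of the 4 in 601 of the 1049 genes. Of 8 beta cell markers checked, 1, MafA, was among the genes analysed here. Of 22 markers of other islet, acinar, vascular, stromal and immune cells, 1 was, the endothelial receptor Kdr, at 0.373 FPKM in 20 mM DMSO and 0.252 FPKM in 2.8 mM DMSO. From the steps between low FPKM values, the 20 mM DMSO library was estimated as 1.24 times as deep as the 2.8 mM DMSO library, and 1 read was worth roughly 0.0631 FPKM at the median gene. Fewer cells expressing a gene and less RNA per cell cannot be told apart in such bulk cultures.

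Levels were compared as log2((20 mM + 0.1)/(2.8 mM + 0.1)) of the FPKM, and genes past 2-fold were counted. Of the 1049 genes, 167 (15.9%) were more than 2-fold higher in 20 mM DMSO than in 2.8 mM DMSO and 82 (7.82%) were more than 2-fold lower. The other 800 genes (76.3%) stayed within 2-fold, and 593 (56.5%) stayed within 1.5-fold. In sign alone, 604 genes had a ratio above 0 and 445 (42.4%) below 0. The median log2 ratio was 0.14, with quartiles of -0.31 and 0.65, and the median level was 12.6 FPKM in 20 mM DMSO and 12.3 FPKM in 2.8 mM DMSO. Differences beyond 8-fold were found in 12 genes on the higher side and 8 on the lower side, and 3 of the 8 are listed at 0 in 20 mM DMSO. With the median of 0.14 subtracted from each ratio, 127 genes were higher and 106 lower, so the higher genes were 54.5% of those past 2-fold in place of 67.1%. Ordered by the mean of both DMSO libraries, the 210 lowest genes, at most 2.81 FPKM, held 69 higher and 18 lower ones, and the 210 highest, at least 45.0 FPKM, held 26 higher and 13 lower ones.

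**Figure D1:**
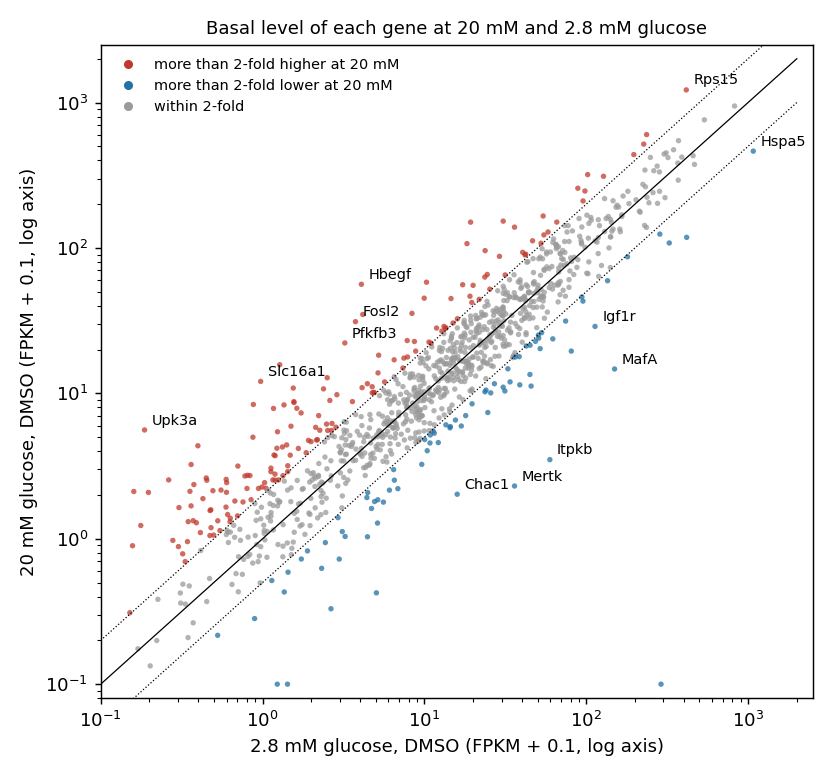
FPKM of each of the 1049 genes in 20 mM glucose with DMSO against FPKM in 2.8 mM glucose with DMSO, both on log scales, 1 library each, with lines at equality and at 2-fold. The 167 higher genes lie above the upper line and the 82 lower genes below the lower line, and the 3 genes listed at 0 in 20 mM DMSO are drawn at the edge of the plot.

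The genes with the highest ratios among those with at least 5 FPKM in a DMSO library encode a mixture of secreted, transport and signalling proteins. Hbegf, the heparin-binding ligand of EGF receptors, was at 56.1 FPKM in 20 mM DMSO and 3.98 FPKM in 2.8 mM DMSO, a log2 ratio of 3.79. S100a5, a calcium-binding protein, was at 34.8 FPKM in 20 mM DMSO and 4.06 FPKM in 2.8 mM DMSO, and with forskolin it was at 42.5 FPKM in 20 mM glucose and 8.72 FPKM in 2.8 mM glucose. Both were higher at 20 mM than at 2.8 mM in DMSO and also in forskolin. Rasgrp2, an exchange factor for Rap1, was at 8.28 FPKM in 20 mM DMSO and 0.777 FPKM in 2.8 mM DMSO. Marcksl1, an actin-associated relative of MARCKS, was at 7.77 FPKM in 20 mM DMSO and 1.07 FPKM in 2.8 mM DMSO. Fyb, an adaptor protein best known in T cells, was at 8.22 FPKM in 20 mM DMSO and 1.26 FPKM in 2.8 mM DMSO. Cxcl16, a membrane-bound chemokine, was at 58.0 FPKM in 20 mM DMSO against 10.2 FPKM in 2.8 mM DMSO. The highest ratio of all, 4.91 for the bladder membrane protein uroplakin 3a (Upk3a), rests on 0.0866 FPKM in 2.8 mM DMSO, which is near the worth of 1 read, against 5.50 FPKM in 20 mM DMSO.

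Genes of fuel handling were among the most different. Slc16a1 encodes the monocarboxylate transporter MCT1, which carries lactate and pyruvate and is kept very low in normal beta cells. It was at 12.0 FPKM in 20 mM DMSO and 0.874 FPKM in 2.8 mM DMSO, a log2 ratio of 3.63. Pfkfb3 makes fructose-2,6-bisphosphate, the activator of phosphofructokinase, and was at 22.1 FPKM in 20 mM DMSO and 3.12 FPKM in 2.8 mM DMSO. Bhlhe40, an E-box repressor of the clock and hypoxia responses, was at 95.7 FPKM in 20 mM DMSO and 23.6 FPKM in 2.8 mM DMSO. Those are the 3 of 10 listed genes of glycolysis and hypoxia that passed 2-fold on the higher side, beside 15.9% of all genes. The list's median log2 ratio was 0.50 against 0.14 over all genes. The glycolytic enzymes were closer to each other. Aldoa, an aldolase, was at 365 FPKM in 20 mM DMSO and 274 FPKM in 2.8 mM DMSO. Pgam1, phosphoglycerate mutase, was at 451 FPKM in 20 mM DMSO and 312 FPKM in 2.8 mM DMSO. Ldhb, a lactate dehydrogenase subunit, was at 60.3 FPKM in 20 mM DMSO and 33.5 FPKM in 2.8 mM DMSO. Vegfa, the vascular growth factor of the hypoxia response, was the 1 gene of the list more than 2-fold lower, at 86.8 FPKM in 20 mM DMSO and 179.7 FPKM in 2.8 mM DMSO. The glucose transporter Slc2a1, named after its values were seen, was nearly equal, at 22.3 FPKM in 20 mM DMSO and 22.2 FPKM in 2.8 mM DMSO.

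Single genes of lipid handling and mitochondria had further large ratios, while the shares of both lists that were higher lay near the 15.9% of all genes. G0s2, which inhibits adipose triglyceride lipase, was at 150.3 FPKM in 20 mM DMSO and 19.2 FPKM in 2.8 mM DMSO, with 148 FPKM in 20 mM forskolin and 139 FPKM in 2.8 mM forskolin. G0s2 was thus low in 1 of the 4 libraries, 2.8 mM DMSO. Fabp3, a fatty acid binding protein, was at 107 FPKM in 20 mM DMSO and 18.2 FPKM in 2.8 mM DMSO. G0s2 and Fabp3 were named for their high ratios and belong to neither list. Of 8 sterol and lipid genes, Stard4, a sterol carrier, passed 2-fold, at 14.8 FPKM in 20 mM DMSO and 7.27 FPKM in 2.8 mM DMSO, and none was 2-fold lower. Stard4, with a log2 ratio of 1.02, was no longer past 2-fold with a pseudocount of 1 FPKM (0.94) or with the median of all genes subtracted. Of 6 mitochondrial genes, 1 passed 2-fold, Ppargc1a, the coactivator PGC-1alpha and a known CREB target. Its level was 7.23 FPKM in 20 mM DMSO and 1.63 FPKM in 2.8 mM DMSO. Pdha1, a pyruvate dehydrogenase subunit, was at 12.9 FPKM in 20 mM DMSO and 6.41 FPKM in 2.8 mM DMSO. Gls2, a glutaminase, lay on the other side at 1.36 FPKM in 20 mM DMSO and 2.19 FPKM in 2.8 mM DMSO.

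The promoters of Slc16a1 and Pfkfb3 are shown because both genes of fuel transport and glycolytic control hold the E-box CACGTG, in capitals, the core read by carbohydrate-sensing and many other factors. The windows are the 250 bases before the gene start in the RefSeq table of assembly GRCr8, at chr2:194812410-194812659, plus strand, for Slc16a1 and chr17:71944683-71944932, plus strand, for Pfkfb3.
Slc16a1: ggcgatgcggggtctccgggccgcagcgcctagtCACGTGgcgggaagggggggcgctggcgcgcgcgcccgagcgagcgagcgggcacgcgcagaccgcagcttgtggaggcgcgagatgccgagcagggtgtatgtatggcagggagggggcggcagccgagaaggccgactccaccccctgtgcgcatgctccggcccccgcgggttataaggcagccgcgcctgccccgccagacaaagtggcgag
Pfkfb3: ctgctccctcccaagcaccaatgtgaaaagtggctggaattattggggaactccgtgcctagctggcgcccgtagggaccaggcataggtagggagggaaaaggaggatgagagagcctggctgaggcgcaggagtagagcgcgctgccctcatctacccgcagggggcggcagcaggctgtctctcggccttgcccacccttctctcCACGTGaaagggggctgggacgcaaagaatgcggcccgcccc
The E-box begins 216 bases before the start of Slc16a1 and 42 bases before that of Pfkfb3. Searched on both strands, CACGTG was in 14 of 132 promoters of higher genes (10.6%), 6 of 61 of lower genes (9.84%) and 77 of 629 of genes within 2-fold (12.2%), against 6.18% of all 27457 promoters in the table. The share in higher genes was below that in genes within 2-fold. A match in letters describes the window and not a bound site.

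Early response genes, the best known targets of CREB, differed by glucose in some members and not in others. Of 32, 9 were more than 2-fold higher in 20 mM DMSO and 1 was lower, beside 15.9% and 7.82% of all genes. Their median log2 ratio was 0.33. With the median of all genes subtracted, 7 were higher and 5 lower, beside 127 and 106 of all 1049 genes. Fosl2, an AP-1 subunit, was at 31.0 FPKM in 20 mM DMSO and 3.65 FPKM in 2.8 mM DMSO. Nr4a3, an orphan nuclear receptor, was at 2.02 FPKM in 20 mM DMSO and 0.256 FPKM in 2.8 mM DMSO, far under its 143 FPKM in 20 mM forskolin and 263 FPKM in 2.8 mM forskolin. Id2, an inhibitor of helix-loop-helix factors, was at 10.6 FPKM in 20 mM DMSO and 2.28 FPKM in 2.8 mM DMSO. Crem, whose ICER product represses cAMP response elements, was at 23.0 FPKM in 20 mM DMSO and 7.73 FPKM in 2.8 mM DMSO. These 4 had their lowest value of the 4 libraries in 2.8 mM DMSO, as did all 167 higher genes. The call and the listing already place 20 mM DMSO and 2.8 mM forskolin above 2.8 mM DMSO, so only the 20 mM forskolin value was free. Atf3, a stress and cAMP factor, was at 4.65 FPKM in 20 mM DMSO and 1.82 FPKM in 2.8 mM DMSO. The lower member was Egr1, a zinc finger factor induced by calcium and MAP kinase, at 10.1 FPKM in 20 mM DMSO and 23.6 FPKM in 2.8 mM DMSO. Id1 and Id3, relatives of Id2 and the most abundant of the list, were within 2-fold. Id1 was at 196 FPKM in 20 mM DMSO and 155 FPKM in 2.8 mM DMSO, and Id3 was at 135 FPKM in 20 mM DMSO and 161 FPKM in 2.8 mM DMSO.

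Genes that damp the cAMP signal lay on both sides. Of 15 such genes, 5 were more than 2-fold higher and 3 lower in 20 mM DMSO, beside 15.9% and 7.82% of all genes. Crem and Sik1 are among these 5 and are also counted among the higher early response genes. Among the phosphodiesterases, which break down cyclic nucleotides, Pde7b was at 5.84 FPKM in 20 mM DMSO and 1.40 FPKM in 2.8 mM DMSO. Pde4b was at 5.47 FPKM in 20 mM DMSO and 2.16 FPKM in 2.8 mM DMSO. Pde3b, a form known to act on cAMP in beta cells and named after its values were seen, was on the lower side at 23.9 FPKM in 20 mM DMSO and 50.8 FPKM in 2.8 mM DMSO. The phosphodiesterases were thus split in direction. Akap12, a scaffold for protein kinase A, was at 11.9 FPKM in 20 mM DMSO and 33.7 FPKM in 2.8 mM DMSO. Rgs16, which shortens G protein signals and is a glucose-responsive gene of islets, was at 123 FPKM in 20 mM DMSO and 54.7 FPKM in 2.8 mM DMSO. Sik1, a kinase that restrains the CREB coactivators, was at 11.0 FPKM in 20 mM DMSO and 4.66 FPKM in 2.8 mM DMSO. Prkar1a, a subunit that restrains protein kinase A, was the most abundant of the list and within 2-fold, at 339 FPKM in 20 mM DMSO and 261 FPKM in 2.8 mM DMSO.

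The promoters of Crem and Ppargc1a are shown because these CREB targets were more than 2-fold higher in 20 mM DMSO and hold the full cAMP response element TGACGTCA, in capitals. They lie at chr17:58984547-58984796, plus strand, for Crem and chr14:63634058-63634307, plus strand, for Ppargc1a, again in GRCr8 and ending at the RefSeq gene start.
Crem: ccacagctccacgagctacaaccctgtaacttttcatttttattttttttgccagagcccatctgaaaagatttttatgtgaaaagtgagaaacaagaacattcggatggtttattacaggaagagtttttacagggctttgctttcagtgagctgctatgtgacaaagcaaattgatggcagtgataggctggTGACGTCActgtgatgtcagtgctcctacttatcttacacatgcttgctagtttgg
Ppargc1a: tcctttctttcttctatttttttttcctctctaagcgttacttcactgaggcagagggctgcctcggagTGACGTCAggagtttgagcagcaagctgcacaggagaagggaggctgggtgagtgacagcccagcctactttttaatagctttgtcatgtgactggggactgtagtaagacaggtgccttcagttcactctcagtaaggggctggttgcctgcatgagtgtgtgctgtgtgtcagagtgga
The element begins 56 bases before the listed start of Crem and 181 bases before that of Ppargc1a. TGACGTCA, its own reverse complement, was in 11 of 132 promoters of higher genes (8.33%), 3 of 61 of lower genes (4.92%) and 47 of 629 of genes within 2-fold (7.47%). In all promoters of the table its share was 1.78%. All these groups were listed for a response to forskolin, and the shares in higher genes and in genes within 2-fold lay close to each other.

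Secreted signals lay on both sides. Of 10 growth factors and cytokines, 3 were higher and 3 lower in 20 mM DMSO, beside 15.9% and 7.82% of all genes. Beside Hbegf, the lymphatic growth factor Vegfc was at 1.58 FPKM in 20 mM DMSO and 0.262 FPKM in 2.8 mM DMSO. Bmp2, a bone morphogenetic protein, was at 2.60 FPKM in 20 mM DMSO and 0.678 FPKM in 2.8 mM DMSO. Wnt4, a Wnt ligand, was on the lower side at 31.3 FPKM in 20 mM DMSO and 74.5 FPKM in 2.8 mM DMSO. Of 9 neuropeptide and granin genes, 4 were higher and 2 lower, beside the same shares of all genes. With a pseudocount of 1 FPKM 1 was higher, beside 106 of all 1049 genes. Cck, the precursor of cholecystokinin, was at 65.6 FPKM in 20 mM DMSO and 24.4 FPKM in 2.8 mM DMSO. Cartpt, the precursor of CART peptides, was at 4.08 FPKM in 20 mM DMSO and 1.56 FPKM in 2.8 mM DMSO. Stc1, stanniocalcin 1, was lower at 20.2 FPKM in 20 mM DMSO and 51.8 FPKM in 2.8 mM DMSO. Vgf, a granin-like secretory granule protein, was abundant and nearly equal, at 421 FPKM in 20 mM DMSO and 389 FPKM in 2.8 mM DMSO. None of 6 genes of granule exocytosis passed 2-fold, their widest log2 ratio being 0.96 for the synaptotagmin Syt4.

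Membrane proteins with at least 2-fold higher values included transporters, receptors and a potassium channel. Of 30 solute carriers and their regulators, 7 were higher and 2 lower, beside 15.9% and 7.82% of all genes. Slc9b2, a sodium and proton exchanger, was at 10.8 FPKM in 20 mM DMSO and 1.45 FPKM in 2.8 mM DMSO. Slc38a3, a glutamine transporter, was at 55.2 FPKM in 20 mM DMSO and 19.9 FPKM in 2.8 mM DMSO. Slc9a3r1, the scaffold NHERF1, was at 311 FPKM in 20 mM DMSO and 128 FPKM in 2.8 mM DMSO. Of 10 G protein-coupled receptors, 3 were higher and 1 lower, beside the same shares of all genes. The 3 higher receptors had few reads in 2.8 mM DMSO. Rxfp3, the relaxin 3 receptor, was at 2.52 FPKM in 20 mM DMSO and 0.349 FPKM in 2.8 mM DMSO. Kcna2, a voltage-gated potassium channel, was at 8.67 FPKM in 20 mM DMSO and 1.46 FPKM in 2.8 mM DMSO. Kcnf1, a silent potassium channel subunit, was lower at 1.02 FPKM in 20 mM DMSO and 3.01 FPKM in 2.8 mM DMSO, although its ratio was -0.99 with a pseudocount of 1 FPKM.

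Of 12 cell cycle genes, 3 were higher and none was lower, while their median log2 ratio was -0.14. For this list and those that follow, the shares over all genes were 15.9% higher and 7.82% lower. Cdkn1a, the cell cycle inhibitor p21, was at 35.4 FPKM in 20 mM DMSO and 8.28 FPKM in 2.8 mM DMSO. Ccnd1, cyclin D1, which drives entry into the cycle, was at 2.46 FPKM in 20 mM DMSO and 0.496 FPKM in 2.8 mM DMSO. Plk2, a polo-like kinase, was at 4.32 FPKM in 20 mM DMSO and 1.31 FPKM in 2.8 mM DMSO. An inhibitor and a driver of the cycle were thus on the same side. Of 4 apoptosis genes, 2 were higher, and 1 with the median of all genes subtracted, which ends the call of Bcl2l11. Bcl2l11, the killer protein BIM, was at 28.8 FPKM in 20 mM DMSO and 13.1 FPKM in 2.8 mM DMSO. Tnfrsf21, the death receptor DR6, was at 17.7 FPKM in 20 mM DMSO and 7.76 FPKM in 2.8 mM DMSO. Of 12 cytokine, NF-kappaB and antiviral genes, 3 were higher and none lower. All 3 calls were lost with a pseudocount of 1 FPKM. The ratios were then 0.92 for the interferon factor Irf7, 0.68 for the NF-kappaB regulator Nfkbiz and 0.57 for the repressor Prdm1. Prdm1 was at 0.783 FPKM in 20 mM DMSO and 0.202 FPKM in 2.8 mM DMSO. Of 7 clock genes, 2 were higher, Bhlhe40 and the nuclear receptor Rorb, with Rorb at 2.44 FPKM in 20 mM DMSO and 1.06 FPKM in 2.8 mM DMSO and within 2-fold with a pseudocount of 1 FPKM (0.74) or with the median of all genes subtracted. Of 8 MAP kinase feedback genes, 1 was higher, a share near the 15.9% of all genes. It was the inhibitor Spry1, at 3.66 FPKM in 20 mM DMSO and 1.38 FPKM in 2.8 mM DMSO, whose ratio was 0.97 with a pseudocount of 1 FPKM.

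Ribosomal protein genes, a list added after their values had been seen, had the highest median of the lists with at least 5 genes. All 14 had positive log2 ratios, beside 604 of all 1049 genes, and 10 passed 2-fold, beside 15.9% of all genes. The median was 1.15. With the median of all genes subtracted, 1 of them, Rpl31 at 0.09 and named for that reason, turns negative. Rps15 was at 1221 FPKM in 20 mM DMSO and 415 FPKM in 2.8 mM DMSO. Rpl19 was at 438 FPKM in 20 mM DMSO and 197 FPKM in 2.8 mM DMSO. Under forskolin the 14 genes had a median log2 ratio of -0.11, beside -0.65 over all 1049 genes. There Rps15 was at 1602 FPKM in 20 mM forskolin and 1329 FPKM in 2.8 mM forskolin. Rps15 was thus low in 1 library, 2.8 mM DMSO, and within 1.5-fold in the other 3. Eef1a1, the translation elongation factor, had the same shape, at 166 FPKM in 20 mM DMSO and 54.1 FPKM in 2.8 mM DMSO, then 176 FPKM in 20 mM forskolin and 144 FPKM in 2.8 mM forskolin. The cytosolic chaperone Hsp90aa1 was at 44.8 FPKM in 20 mM DMSO and 14.5 FPKM in 2.8 mM DMSO, then 50.9 FPKM in 20 mM forskolin and 40.1 FPKM in 2.8 mM forskolin. In 83 genes the 3 other libraries lay above 2.8 mM DMSO and within 1.5-fold of each other, and 45 of these were among the 167 higher genes. With those 83 left out, 122 genes were higher and 82 lower, and the median log2 ratio was 0.063. By the listing and this rule each of the 83 has a positive ratio. Leaving them out could thus only lower the median, could not raise the count of higher genes and could not change the 82. The part of the 2.8 mM DMSO library, which the listing also used, in the differences between 20 mM and 2.8 mM DMSO was not tested. Genes of these families share sequence with many processed copies, so their FPKM are uncertain.

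On the lower side, the widest ratios among genes with at least 5 FPKM in a DMSO library and no 0 belonged to a kinase, a receptor and a beta cell factor. Itpkb phosphorylates inositol trisphosphate, the messenger that releases calcium from the endoplasmic reticulum. It was at 3.40 FPKM in 20 mM DMSO and 59.5 FPKM in 2.8 mM DMSO, a log2 ratio of -4.09, and with forskolin it was at 6.06 FPKM in 20 mM glucose and 142 FPKM in 2.8 mM glucose. Mertk, a cell surface kinase that recognises dying cells, was at 2.21 FPKM in 20 mM DMSO and 35.9 FPKM in 2.8 mM DMSO. MafA, the activator of the insulin gene, was at 14.6 FPKM in 20 mM DMSO and 149 FPKM in 2.8 mM DMSO, and with forskolin it was at 77.3 FPKM in 20 mM glucose and 639 FPKM in 2.8 mM glucose. All 3 were low in both 20 mM libraries. Smim14, a small membrane protein, was at 19.4 FPKM in 20 mM DMSO and 80.7 FPKM in 2.8 mM DMSO. Ass1, argininosuccinate synthase, was at 11.1 FPKM in 20 mM DMSO and 45.5 FPKM in 2.8 mM DMSO. Fn1, the matrix protein fibronectin, was at 118 FPKM in 20 mM DMSO and 417 FPKM in 2.8 mM DMSO. Epas1, the hypoxia factor HIF-2alpha, was at 11.3 FPKM in 20 mM DMSO and 38.7 FPKM in 2.8 mM DMSO.

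Of 8 beta cell identity genes, 6 had negative log2 ratios, beside 42.4% of all genes, and the median was -0.94. More than 2-fold lower were 3, beside 7.82% of all genes, and none was more than 2-fold higher. With the median of all genes subtracted 5 were lower, Pcsk1 among them, beside 106 of all 1049 genes. Nkx2-2, a homeodomain factor of islet cells, was at 43.0 FPKM in 20 mM DMSO and 95.3 FPKM in 2.8 mM DMSO. Pcsk1, the prohormone convertase that begins the cutting of proinsulin, was at 7.35 FPKM in 20 mM DMSO and 14.3 FPKM in 2.8 mM DMSO. Foxa2, a pioneer factor of endoderm, was on the other side, at 86.3 FPKM in 20 mM DMSO and 51.8 FPKM in 2.8 mM DMSO. Ucn3, a peptide of mature beta cells named after its values were seen, was listed at 0 in 20 mM DMSO and at 1.33 FPKM in 2.8 mM DMSO. Of 9 receptor tyrosine kinases, 3 were lower and 1 higher, beside 7.82% and 15.9% of all genes. Of 4 insulin signalling genes 2 were lower. Igf1r, the receptor of insulin-like growth factor 1, was at 28.8 FPKM in 20 mM DMSO and 113 FPKM in 2.8 mM DMSO. Egfr, a receptor of Hbegf, was at 0.625 FPKM in 20 mM DMSO and 2.88 FPKM in 2.8 mM DMSO. Ligand and receptor thus lay on opposite sides. Epha2, an ephrin receptor, was higher, at 2.63 FPKM in 20 mM DMSO and 0.707 FPKM in 2.8 mM DMSO. Sgk1, a kinase under insulin and glucocorticoid control, was at 3.15 FPKM in 20 mM DMSO and 9.53 FPKM in 2.8 mM DMSO.

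Of 8 genes listed for endoplasmic reticulum chaperones and the response to unfolded proteins, 4 were more than 2-fold lower, beside 7.82% of all genes. None was higher. Among the 4 was Herpud1, which is also on the integrated stress response list. All 8 log2 ratios were below 0, beside 42.4% of all genes, and the median was -0.79. The lectin chaperone Canx, named after its values were seen, at -0.01 and the translocon subunit Sec61a1 at -0.09 were nearly equal. Hspa5, the chaperone BiP, was at 463 FPKM in 20 mM DMSO and 1076 FPKM in 2.8 mM DMSO, and with forskolin it was at 792 FPKM in 20 mM glucose and 3641 FPKM in 2.8 mM glucose. Dnajb9, a cochaperone of BiP, was at 3.93 FPKM in 20 mM DMSO and 10.3 FPKM in 2.8 mM DMSO. Hyou1, a large chaperone of the same compartment, was at 59.4 FPKM in 20 mM DMSO and 135 FPKM in 2.8 mM DMSO. Hsp90b1, the chaperone GRP94, was within 2-fold at 375 FPKM in 20 mM DMSO and 466 FPKM in 2.8 mM DMSO. Outside the list, Ficd, which modifies BiP, was at 13.4 FPKM in 20 mM DMSO and 44.8 FPKM in 2.8 mM DMSO. Bhlha15, a factor of secretory cells, was at 10.3 FPKM in 20 mM DMSO and 31.3 FPKM in 2.8 mM DMSO.

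In the integrated stress response, ATF4 raises genes of amino acid supply. Of 18 genes listed for this response, not all of amino acid supply, 2 were more than 2-fold lower, a share near the 7.82% of all genes. Another 1 was higher and 15 were within 2-fold. Ratios below 0 were found in 13, beside 42.4% of all genes, and the median was -0.46. With the median of all genes subtracted, 6 were lower, beside 106 of all 1049 genes. Chac1, which breaks down glutathione and is a target of ATF4, was at 1.92 FPKM in 20 mM DMSO and 15.8 FPKM in 2.8 mM DMSO. Herpud1, a protein of endoplasmic reticulum degradation, was at 45.9 FPKM in 20 mM DMSO and 93.9 FPKM in 2.8 mM DMSO. It is also counted among the lower genes of the endoplasmic reticulum list. Atf4 itself was at 138 FPKM in 20 mM DMSO and 236 FPKM in 2.8 mM DMSO, within 2-fold. Slc1a4, an amino acid transporter of the solute carrier list, was at 7.28 FPKM in 20 mM DMSO and 24.6 FPKM in 2.8 mM DMSO. On the stress list itself, the amino acid transport genes Slc7a5, Slc3a2 and Slc7a1 were within 2-fold. Their log2 ratios were 0.19, 0.27 and -0.33, and Slc7a5 and Slc7a1 were named after their values were seen. The higher gene was the cystine transporter Slc7a11, at 1.00 FPKM in 20 mM DMSO and 0.313 FPKM in 2.8 mM DMSO, with a ratio of 0.61 at a pseudocount of 1 FPKM.

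The promoters of Hspa5, Chac1, Slc1a4 and Herpud1 are shown because these lower genes hold elements named for such stress responses. In capitals are both fixed parts of the ER stress response element in Hspa5, which is CCAAT, then 9 bases of any kind, then CCACG, and the ATF4-type element TGATGCAA, here as its reverse complement, in the others. The 250-base windows in GRCr8 lie at chr3:38452766-38453015, plus strand, for Hspa5 and chr3:126795881-126796130, plus strand, for Chac1. They lie at chr14:98761563-98761812, minus strand, for Slc1a4 and chr19:10614708-10614957, minus strand, for Herpud1.
Hspa5: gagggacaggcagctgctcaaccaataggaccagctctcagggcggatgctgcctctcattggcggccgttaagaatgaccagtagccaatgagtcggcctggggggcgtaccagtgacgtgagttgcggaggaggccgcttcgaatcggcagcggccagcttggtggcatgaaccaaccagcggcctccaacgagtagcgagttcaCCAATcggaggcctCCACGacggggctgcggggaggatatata
Chac1: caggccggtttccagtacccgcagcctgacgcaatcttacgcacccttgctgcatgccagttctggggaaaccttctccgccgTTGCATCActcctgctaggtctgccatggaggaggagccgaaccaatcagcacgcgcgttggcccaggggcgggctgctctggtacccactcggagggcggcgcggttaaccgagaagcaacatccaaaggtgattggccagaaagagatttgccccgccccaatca
Slc1a4: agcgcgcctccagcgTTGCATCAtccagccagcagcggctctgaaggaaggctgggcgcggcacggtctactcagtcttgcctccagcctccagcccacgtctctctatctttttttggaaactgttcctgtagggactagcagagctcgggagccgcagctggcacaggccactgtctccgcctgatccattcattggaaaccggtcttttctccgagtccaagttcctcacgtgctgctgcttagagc
Herpud1: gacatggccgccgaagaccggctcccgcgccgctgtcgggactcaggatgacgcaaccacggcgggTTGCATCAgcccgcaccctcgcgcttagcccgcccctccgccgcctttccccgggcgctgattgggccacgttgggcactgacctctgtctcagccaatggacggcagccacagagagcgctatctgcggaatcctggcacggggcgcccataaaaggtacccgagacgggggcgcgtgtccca
The elements begin 43, 167, 235 and 184 bases before the starts of Hspa5, Chac1, Slc1a4 and Herpud1. The window of Slc1a4, a lower gene, also holds the E-box CACGTG, left in small letters. Searched on both strands, TGATGCAA was in 3 of 61 promoters of lower genes (4.92%), 0 of 132 of higher genes and 4 of 629 of genes within 2-fold (0.636%), against 0.725% of all promoters. The ER stress element was in 1 of 61 promoters of lower genes, 0 of 132 of higher genes and 3 of 629 of genes within 2-fold, against 0.0765% of all. The motifs were picked after the values had been seen, so these shares describe the genes and test nothing.

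**Figure D2:**
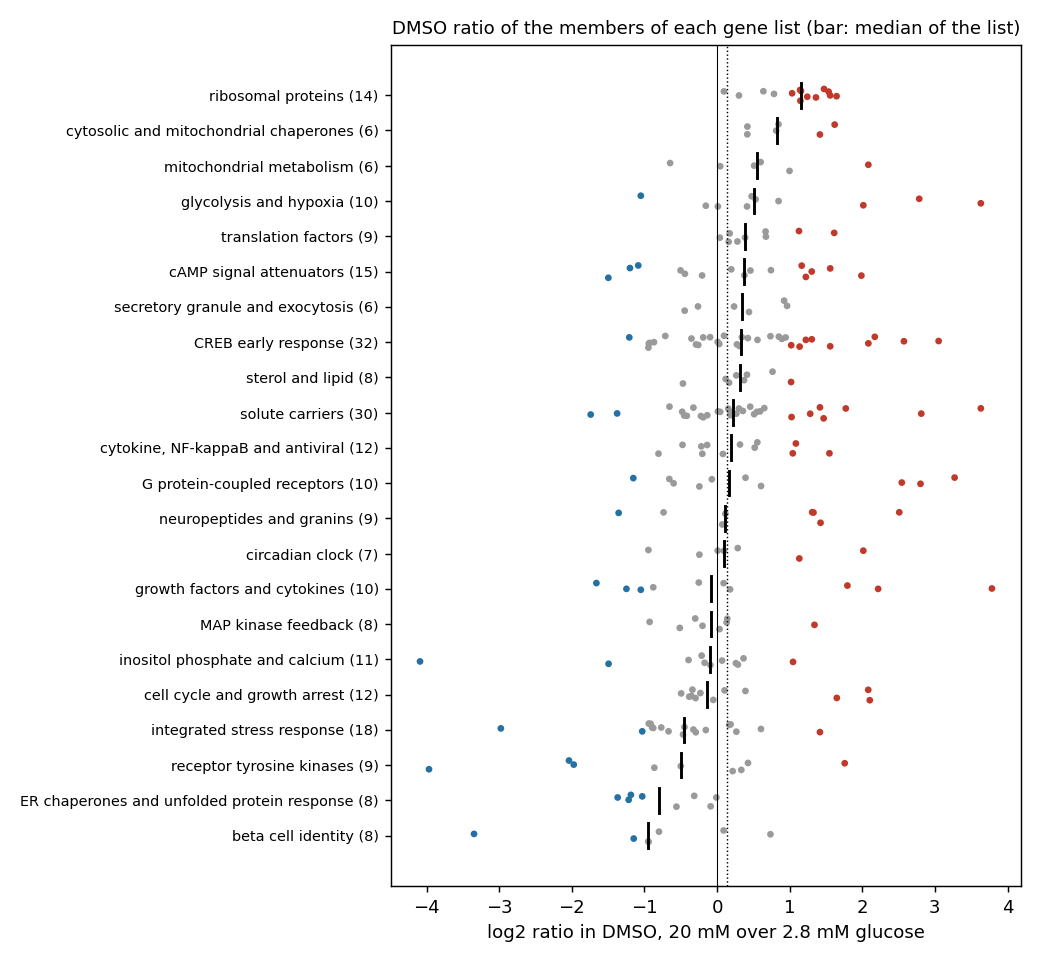
Log2 ratio of 20 mM over 2.8 mM glucose in DMSO for each gene (points, red past 2-fold higher, blue past 2-fold lower) of the lists with at least 6 genes, with the list's median (bar) and the median of all genes (dotted), 1 library a side. Ribosomal proteins sit above 0 with a median of 1.15 and the 8 endoplasmic reticulum genes below 0 with a median of -0.79, and genes listed at 0 are counted in the medians but not drawn.

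Most of the 10 most abundant genes in the DMSO libraries were within 2-fold, as were 76.3% of all genes. Cd63, a tetraspanin of late endosomes and granules, was at 946 FPKM in 20 mM DMSO and 825 FPKM in 2.8 mM DMSO. Ckb, brain creatine kinase, was at 759.7 FPKM in 20 mM DMSO and 536 FPKM in 2.8 mM DMSO. Atp5d, a subunit of ATP synthase, was at 546 FPKM in 20 mM DMSO and 371 FPKM in 2.8 mM DMSO. Of the 10 most abundant, Rps15 and Bex1 were more than 2-fold higher and Hspa5 was more than 2-fold lower. Over all genes, 15.9% were higher and 7.82% lower. Bex1, a small brain-expressed protein, was at 602 FPKM in 20 mM DMSO and 236 FPKM in 2.8 mM DMSO.

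The same glucose contrast can be read in the forskolin libraries, which share no library with the DMSO comparison, although the listing used both 2.8 mM libraries. There the median log2 ratio of 20 mM over 2.8 mM was -0.65, with 36 genes (3.43%) more than 2-fold higher and 344 (32.8%) more than 2-fold lower. Of the 82 genes lower in DMSO, 78 were also more than 2-fold lower under forskolin, with a median of -2.24. The exception in sign was Egr1, at 93.1 FPKM in 20 mM forskolin and 85.2 FPKM in 2.8 mM forskolin. Of the 167 genes higher in DMSO, 31 were also more than 2-fold higher under forskolin, 14 were more than 2-fold lower, and the median was 0.27. Against the median over all 1049 genes, 146 of the 167 lay above it. Among the 800 others, 5 were higher and 252 lower. Across the 1049 genes, which are not independent replicates, the ratios in DMSO and forskolin had Pearson's r of 0.67 and Spearman's rho of 0.67.

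**Figure D3:**
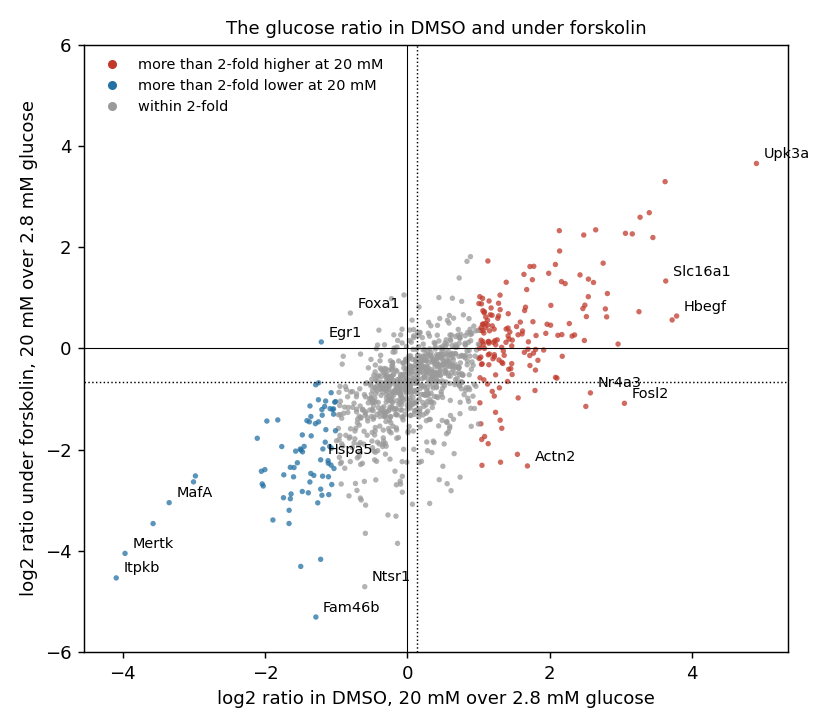
Log2 ratio of 20 mM over 2.8 mM glucose in the forskolin libraries (vertical axis) against the same ratio in the DMSO libraries (horizontal axis), 1 point a gene, without genes listed at 0, with dotted lines at the medians of all genes. Genes lower in DMSO lie almost wholly below 0 on the vertical axis, while those higher in DMSO spread to both sides.

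**Figure D4:**
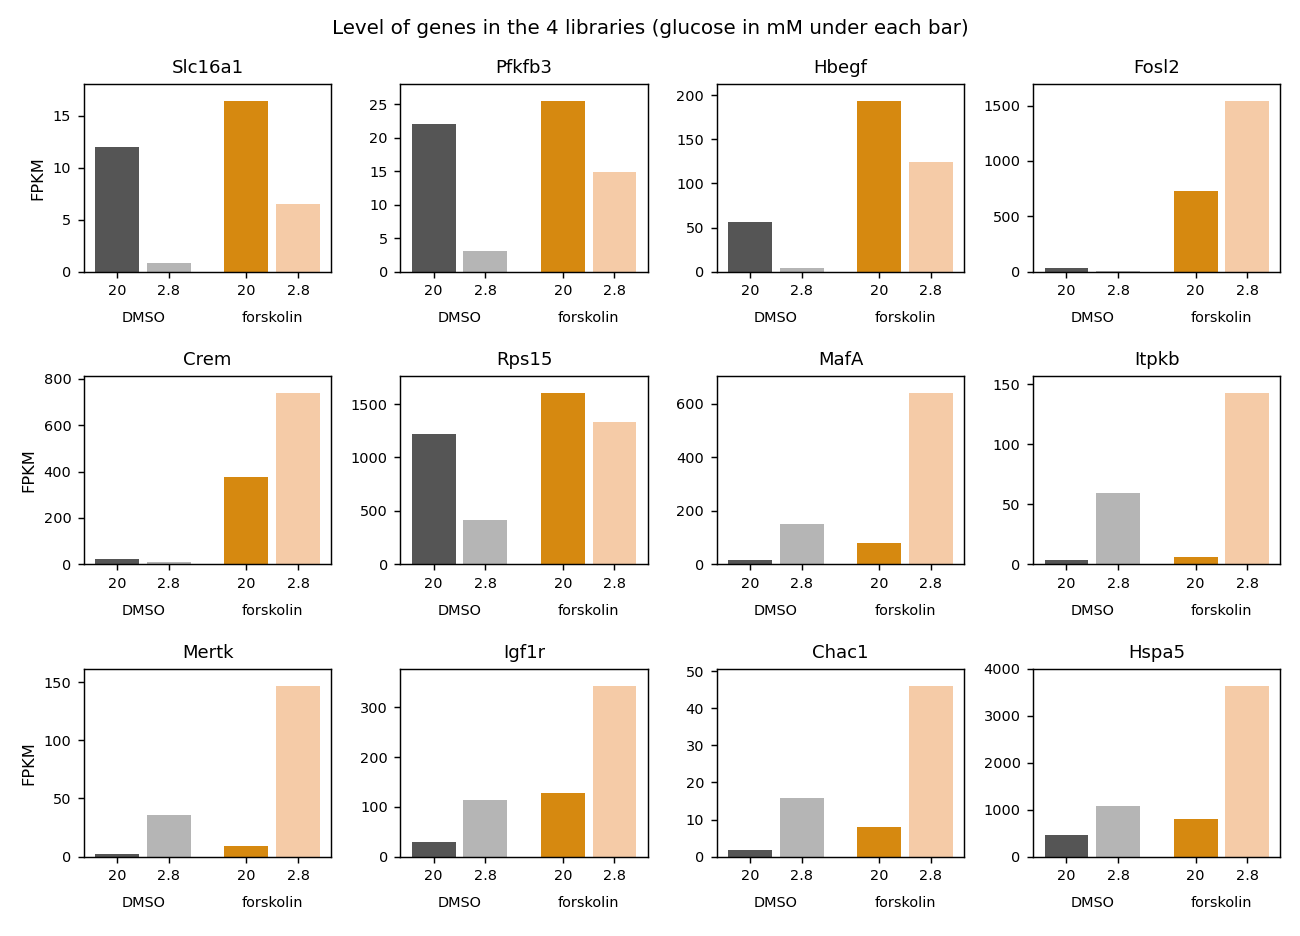
FPKM in the 4 libraries of the glucose experiment for genes named in the text, 20 mM left of 2.8 mM in DMSO and in forskolin, 1 library a bar. MafA and Itpkb are low in both 20 mM libraries, while Rps15 is low in 2.8 mM DMSO alone.

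The response to forskolin at 20 mM was also counted by group. Forskolin over DMSO at 20 mM reached 2-fold in 65 of the 167 higher genes (38.9%), 56 of the 82 lower genes (68.3%) and 320 of the 800 others (40.0%). The 20 mM DMSO value is in both ratios, so a lower value there raises the second. This favours a larger share in the lower genes by construction. Genes near the limit of 1 FPKM on the mean were Cetn4, Zpbp and Astn2 just inside, with means of 1.00, 1.01 and 1.01 FPKM. Just outside were Pcdhga12 and Fbn1, with means of 0.985 and 0.992 FPKM. Among the genes compared, 57 of the 167 higher ones were under 1 FPKM in 2.8 mM DMSO and 17 of the 82 lower ones were under 1 FPKM in 20 mM DMSO, where few reads set the ratio.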

How the data were processed

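Per the labels' protocols, Trizol RNA of INS-1 cells was cleaned on a column and its mRNA went into NEBNext Ultra libraries. The submitters' processing notes name TopHat2, Cuffdiff and the rat build rn5. Their versions, the annotation, the use of strand and how Cuffdiff scaled the libraries are not given in the sources used here. FPKM values were deposited by the authors, cut to genes with forskolin over DMSO above 2 at 2.8 mM, as tested on the values.

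Of the 4 columns, 20 mM DMSO was set over 2.8 mM DMSO with a pseudocount of 0.1 FPKM, in genes with a mean of 1 FPKM or more, and calls were differences past 2-fold. No test was run with 1 library a side. The genes, the 28 gene lists and the named-gene rule were chosen with earlier results of these data known, and 3 more lists were added after the values were seen. The lists share some genes, so their counts are not independent. Named genes were the 15 highest and 15 lowest ratios with at least 5 FPKM in a DMSO library, the 10 highest levels, the 6 widest ratios and 3 highest levels of each list, and the 10 widest differences from forskolin each way, and a few of these are not reported here. Names were matched to the RefSeq table of GRCr8 by symbol (957), gene ID (17) or synonym (65), and 10 matched none. Promoters were 250 bases, for 822 genes. Depth came from 255 genes with few reads, 62.4% of whose values lay on whole-read steps within 2%. Alternatives were other pseudocounts, means, thresholds and centring, and leaving out genes at 0. The functions were checked on simulated data. Python 3.11.15, numpy 2.4.6, pandas 2.3.3 and matplotlib 3.10.9 were used.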

Additional observations from a re-analysis of the deposited data

Results flagged for a closer look

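In 14 genes the log2 ratio of 20 mM over 2.8 mM glucose passed 2-fold upward in DMSO and 2-fold downward under forskolin. They were among the 167 genes higher in DMSO. Over all 1049 genes, 344 (32.8%) were more than 2-fold lower under forskolin, where the median log2 ratio was -0.65. The difference between the DMSO and forskolin ratios was not tested, since each ratio rests on 1 library a side. The listing by the fold at 2.8 mM favours a low 2.8 mM DMSO value and a high 2.8 mM forskolin value, and its part in the differences was not tested.

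The AP-1 and related early factors among them were Fosl2, with a log2 ratio of 3.05 in DMSO and -1.08 under forskolin, and Fos, with 1.02 in DMSO and -1.07 under forskolin. Atf3 had 1.31 in DMSO and -1.42 under forskolin, and Maff, a small Maf factor, had 1.14 in DMSO and -1.88 under forskolin. The neuropeptide genes were Penk at 2.51 in DMSO and -1.14 under forskolin, Cartpt at 1.33 in DMSO and -1.58 under forskolin, and Calca at 1.31 in DMSO and -2.25 under forskolin. The muscle-type genes were Actn2, alpha-actinin 2, at 1.69 in DMSO and -2.32 under forskolin, and Mustn1 at 1.05 in DMSO and -2.31 under forskolin. Of the others, Prdm1 had 1.55 in DMSO and -2.09 under forskolin, Rcan1 had 1.05 in DMSO and -1.80 under forskolin, and cytochrome c (Cycs) had 1.24 in DMSO and -1.26 under forskolin. Guca2a, guanylin, had 1.09 in DMSO and -1.74 under forskolin, and the repressor Snai3 had 1.03 in DMSO and -1.49 under forskolin. Penk, Prdm1, Calca, Guca2a, Snai3 and Cycs were under 1 FPKM in 2.8 mM DMSO, so their DMSO ratios rest on few reads.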

How the results depend on the processing

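No paired analysis was possible because each condition was 1 library, and no replicate could be left out. The count of genes higher at 20 mM in DMSO, 167 as reported, was 106 with a pseudocount of 1 FPKM, 108 for means of at least 5 FPKM, 293 past 1.5-fold and 71 past 3-fold. The count of lower genes, 82 as reported, was 163 past 1.5-fold and 27 past 3-fold. The median log2 ratio of 0.14 was 0.063 without the 83 genes low in 2.8 mM DMSO alone, an alternative chosen after seeing the data. By its construction that alternative could only lower the median. With a pseudocount of 0.01 FPKM 175 were higher and 86 lower, and with no filter 217 were higher and 102 lower. A pseudocount is added to both sides, so it cannot turn the sign of a ratio. With a pseudocount of 1 FPKM 18 genes named by the rule were no longer past 2-fold, and with 0.01 FPKM 4 others came to be. The cause was not tested, beyond the construction of each setting. Subtracting the median moves list medians of 0.11 for neuropeptides and 0.10 for clock genes below 0, while leaving out Ucn3, listed at 0, makes the neuropeptide median 0.71. For means of at least 5 FPKM the median of growth factors, -0.08 as reported, was -0.88, and that of cytokine and antiviral genes, 0.20 as reported, was -0.14. List counts with the median subtracted or a pseudocount of 1 FPKM were added after seeing the data. Depth limits genes near 0.0631 FPKM, about 1 read, and without replicates no ratio can be set against the spread between cultures.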

Other observations

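Gene groups not described above were smaller or mixed. Their counts stand beside the 15.9% of all genes that were higher and the 7.82% that were lower. Of 11 genes of inositol phosphates and calcium, 2 were more than 2-fold lower in 20 mM DMSO and 1 was higher. Beside Itpkb, the lower gene was the calmodulin kinase Camk1g, at 2.06 FPKM in 20 mM DMSO and 5.98 FPKM in 2.8 mM DMSO. The higher gene was Rcan1, an inhibitor of calcineurin, at 65.1 FPKM in 20 mM DMSO and 31.5 FPKM in 2.8 mM DMSO, within 2-fold once the median of all genes is subtracted. The calcium pump Atp2a2 was abundant and within 2-fold, at 245 FPKM in 20 mM DMSO and 284 FPKM in 2.8 mM DMSO. Of 4 genes kept low in normal beta cells, Slc16a1 was the 1 past 2-fold. Among 9 translation factors and 6 cytosolic and mitochondrial chaperones, lists added after the values had been seen, 2 and 2 were higher and none lower, and 1 of the translation factors with a pseudocount of 1 FPKM or the median of all genes subtracted. The mitochondrial chaperone Hspd1 was at 63.0 FPKM in 20 mM DMSO and 23.5 FPKM in 2.8 mM DMSO.

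The table made at 11 mM glucose for the A-CREB experiment, which lists genes raised by forskolin without virus, held 48 of the 167 higher genes (28.7%), 36 of the 82 lower genes (43.9%) and 217 of the 800 others (27.1%). In all, 301 genes were shared, 28.7% of the genes described here and 53.2% of that table. Listed at 0 in 20 mM DMSO were Ucn3, Fam70b and Mir343, all with values above 0 in 2.8 mM DMSO, and no fold is given for them.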
